A study of Homo sapiens with 4 samples.

Results

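The keratins were the 55 genes of the count table, out of 18449 gene symbols, whose symbol is *KRT* followed by a number and at most 1 letter from A to C. Keratin-associated protein genes were not among them. RNA was sequenced from BT-16 and CHLA-266, 2 established cell lines of atypical teratoid/rhabdoid tumor of the MYC subtype (AT/RT-MYC), a malignant brain tumor of infancy. There was 1 untreated and 1 treated library of each line (4 libraries in all), and the 2 lines stood in as replicates of a condition. Treated cells had received 1 µM doxorubicin (doxo) and 5 µM etoposide (eto), both inhibitors of topoisomerase II, and 1 µM vincristine (vin), which blocks microtubule assembly, on 3 consecutive days. Most cells died, and the treated libraries hold the cells that grew back weeks later. Each line is a single line, no source states that replicate cultures were made, and p values therefore measure only the spread between these libraries.

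Keratins are the intermediate filament proteins of epithelia. A filament is built from pairs of an acidic type I and a basic type II keratin, and a keratin without a partner is degraded. Simple, single-layered epithelia use *KRT8* and *KRT7* (type II) with *KRT18* and *KRT19* (type I). Stratified epithelia such as epidermis, esophagus, and cornea use other pairs in their basal and upper layers. The root sheaths of the hair follicle and the hair shaft itself have sets of their own. Rhabdoid tumors are mesenchymal in look, but are known for staining of both vimentin and keratins.

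Of the 55 genes, 28 are type I and 26 type II keratins, and *KRT222* is a keratin-like gene outside both types. In hg38, 28 lie in the type I cluster on chromosome 17 and 27 in the type II cluster on chromosome 12, where *KRT18* is the type I gene beside *KRT8*. By function, 4 were simple-epithelium keratins, 20 stratified-epithelium keratins, 9 root-sheath keratins, 17 hair-shaft keratins, and 5 others (*KRT20* of the gut, *KRT23*, *KRT24*, *KRT80*, and *KRT222*). In all, 54 had at least 1 count and were tested. *KRT222* had 0 counts in every library, and *KRT39* had 3 counts in a single library.

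Total counts ranged from 49849258 to 75087194 per library and were lower in the treated library of both lines. More genes were detected in the treated libraries (17114 and 17815) than in the untreated ones (15464 and 16079). Among counts from 1 to 20, between 20.5% and 34.2% were odd, so that most low counts came in steps of 2, and intervals from counting error are too narrow for them. Vimentin (*VIM*) had 73439 to 120804 counts in each library. *SMARCB1*, the tumor suppressor gene lost or mutated in most of these tumors, had 827 to 1394 counts and was thus not at 0 in any library. Of 10 skin markers, *DSC1* alone passed the test and 6 had no more than 3 counts in both untreated libraries. *LORICRIN*, which defines the outermost epidermis, had 18 counts in treated BT-16 cells and 0 elsewhere.

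*KRT8* and *KRT18* made up most of the keratin RNA of both lines, and both lay about 1 unit higher on the log2 scale after treatment, a difference that passed the test in *KRT18* and, once the cell line was in the model, in *KRT8*. The keratins of stratified epithelia, root sheath, and hair went from a median of 1.5 counts in each untreated library to medians of 38.5 and 20.0 in the treated ones, with *KRT15* and *KRT16* as the most abundant that were upregulated. *KRT19* and *KRT10* did not pass the test. Of 54 keratins, 17 were upregulated and 0 downregulated (adjusted p under 0.05, edgeR quasi-likelihood test over 18066 genes). Over all genes 16.1% were upregulated and 19.1% downregulated. Keratins had a median log2 fold change of 3.87, against 0.24 over all genes. With the cell line as a block, 17 keratins were upregulated and 1 downregulated, against 17.9% and 23.7% of all genes. Before adjustment, 28 keratins were higher and 0 lower at a p under 0.05 in edgeR, and DESeq2 gave 0 downregulated keratins too. The block is called lines paired in what follows.

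The 4 simple-epithelium keratins gave 91.6% of all keratin counts in BT-16 before and 91.7% after treatment (exact 95% binomial intervals 91.2 to 91.9 and 91.5 to 92.0). In CHLA-266 they gave 87.2% and 86.8% (86.6 to 87.8 and 86.3 to 87.2). These intervals of untreated and treated cells overlapped in both lines, while the summed simple keratins were 2.46-fold higher in treated BT-16 and 2.11-fold higher in treated CHLA-266 cells after trimmed-mean (TMM) normalization. The folds were 3.24 and 2.59 with upper-quartile normalization, and 3.01 and 2.36 with library totals alone. *KRT8* and *KRT18* alone held 88.5% and 90.0% in BT-16 (88.1 to 88.9 and 89.7 to 90.2). In CHLA-266 they held 82.2% and 83.9% (81.5 to 82.9 and 83.4 to 84.4). The intervals for *KRT8* and *KRT18* did not overlap in either line. All of these intervals cover counting error only, and would be wider if both reads of each pair had been counted. Without replicate libraries of a line they do not measure the spread between cultures. Whether these shares differed with treatment was therefore not tested. Per kilobase of exon, which allows levels of different genes to be compared, the simple keratins held 81.7% and 84.1% in BT-16, with 75.4% and 76.6% in CHLA-266.

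**Figure D1:**
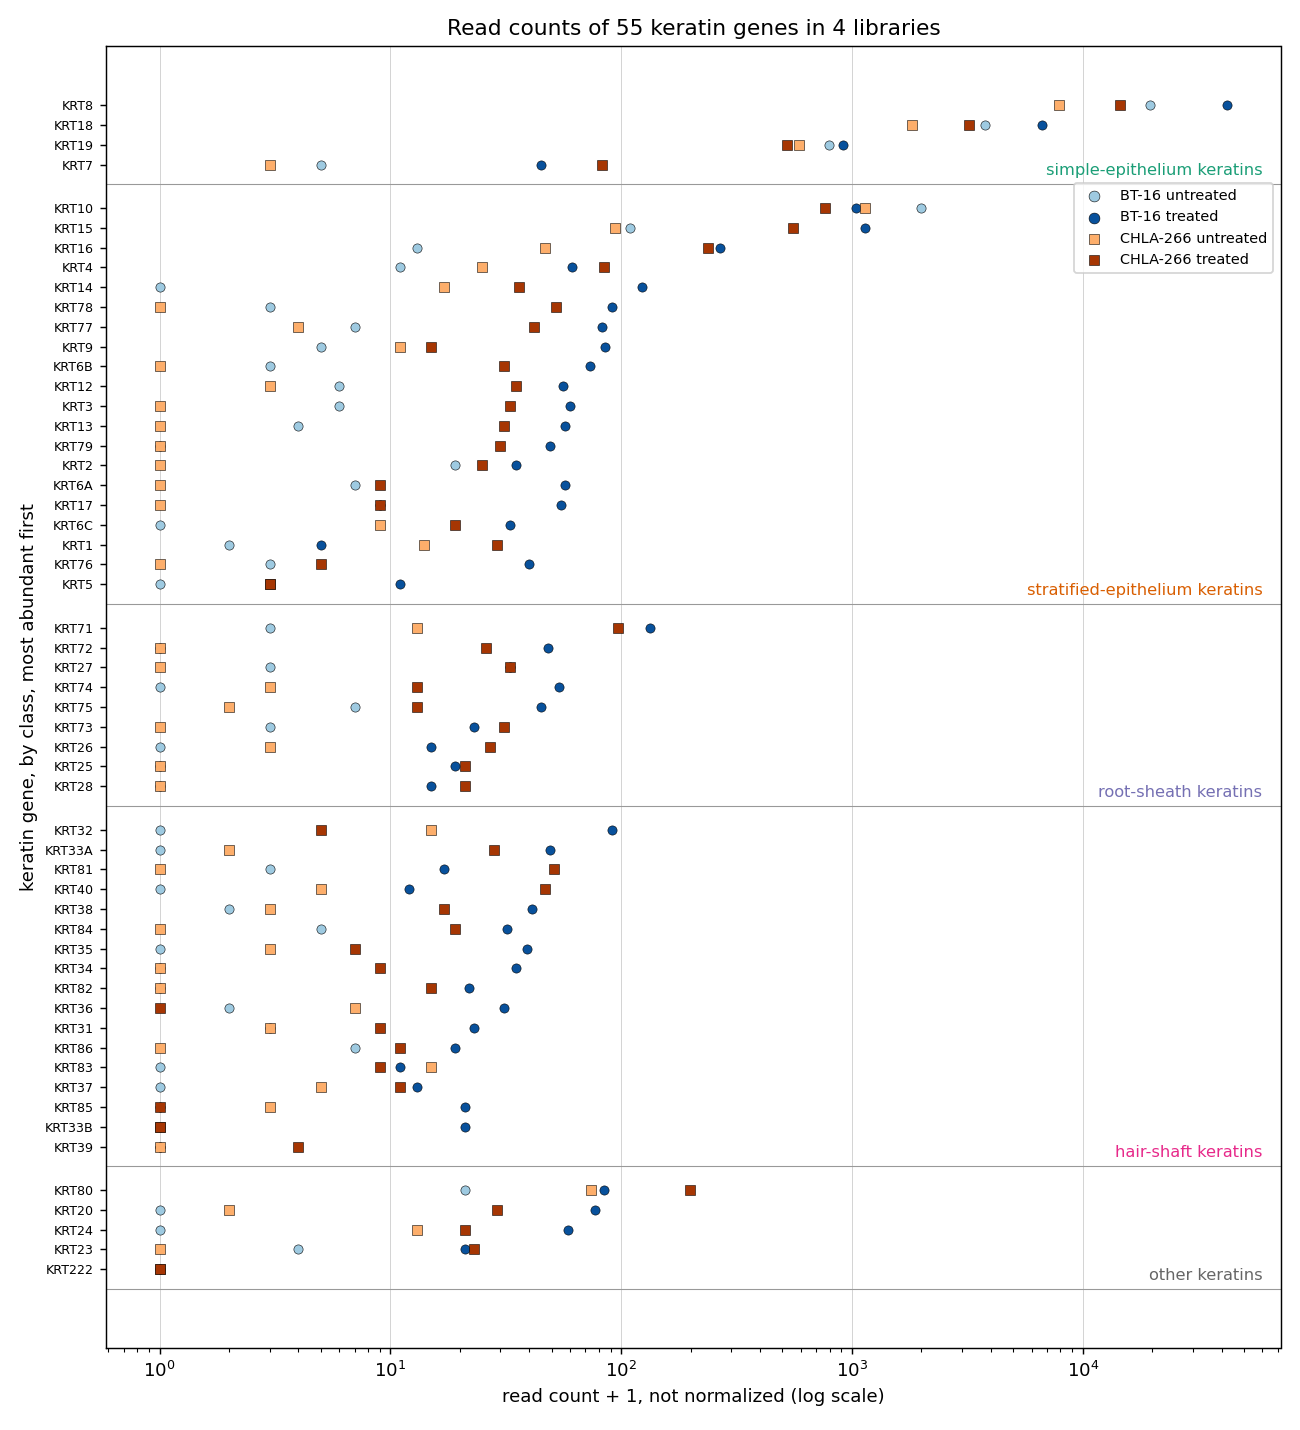
Read count plus 1 of each of the 55 keratins (rows, grouped by class) in the 4 libraries, on a log scale without normalization. *KRT8* and *KRT18* lie far to the right in every library, and most stratified, root-sheath, and hair-shaft keratins lie at low counts in the untreated libraries and further right in the treated ones.

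*KRT8* (chr12:52897187-52949954, minus strand), the type II keratin of simple epithelia, had 19569 counts in BT-16 before and 42198 after treatment, and 7895 and 14514 in CHLA-266. On the scale of CPM, the count scaled to the TMM-normalized library size, these were 283.7, 729.9, 128.3, and 279.3 in the same order. Treated CHLA-266 cells therefore lay just below untreated BT-16 cells, and the groups overlapped although *KRT8* was higher after treatment in both lines. The log2 fold change was 1.29 (SE 0.46, adjusted p = 0.0567, edgeR), which did not pass the threshold. With lines paired it was 1.24, with an adjusted p of 5.66e-08 in edgeR, and *KRT8* passed in 8 of 15 alternatives. The log2 ratio of treated to untreated was 1.36 (95% counting interval 1.34 to 1.39) in BT-16, compared with 1.12 (1.08 to 1.16) in CHLA-266.

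*KRT18* (chr12:52948871-52952906, plus strand), the type I partner of *KRT8*, had 3759 and 6634 counts in BT-16, with 1820 and 3207 in CHLA-266, each pair here and in what follows given as untreated and treated. It was upregulated with a log2 fold change of 1.07 (SE 0.34, adjusted p = 0.0386, edgeR). The ratios within the lines were nearly alike, at 1.07 (1.02 to 1.13) in BT-16 and 1.06 (0.98 to 1.15) in CHLA-266. Both treated libraries (114.8 and 61.7 CPM) lay above both untreated ones (54.5 and 29.6 CPM), and *KRT18* passed in 12 of 15 alternatives.

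*KRT19* (chr17:41523617-41528308, minus strand), the smallest type I keratin, had 796 and 914 counts in BT-16, with 588 and 524 in CHLA-266. The groups overlapped on the CPM scale, at 11.5 and 9.55 untreated and 15.8 and 10.1 treated. Its log2 fold change was 0.30 (SE 0.30, adjusted p = 0.444, edgeR), close to the median of all genes, and it passed in 0 of 15 alternatives. Within BT-16 the log2 ratio was 0.45 (0.32 to 0.59), and within CHLA-266 the interval included 0 (0.08, from -0.09 to 0.25). Without the treated BT-16 library the fold change was -0.06.

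*KRT7* (chr12:52232520-52252186, plus strand), the type II keratin of glands and ducts, had 4 and 44 counts in BT-16, with 2 and 82 in CHLA-266. It was upregulated with a log2 fold change of 4.62 (SE 1.08, adjusted p = 0.0123, edgeR), the largest of the 4 simple keratins. Its level remained low, since *KRT8* exceeded it 557-fold in treated BT-16 and 103-fold in treated CHLA-266 cells per kilobase of exon.

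**Figure D2:**
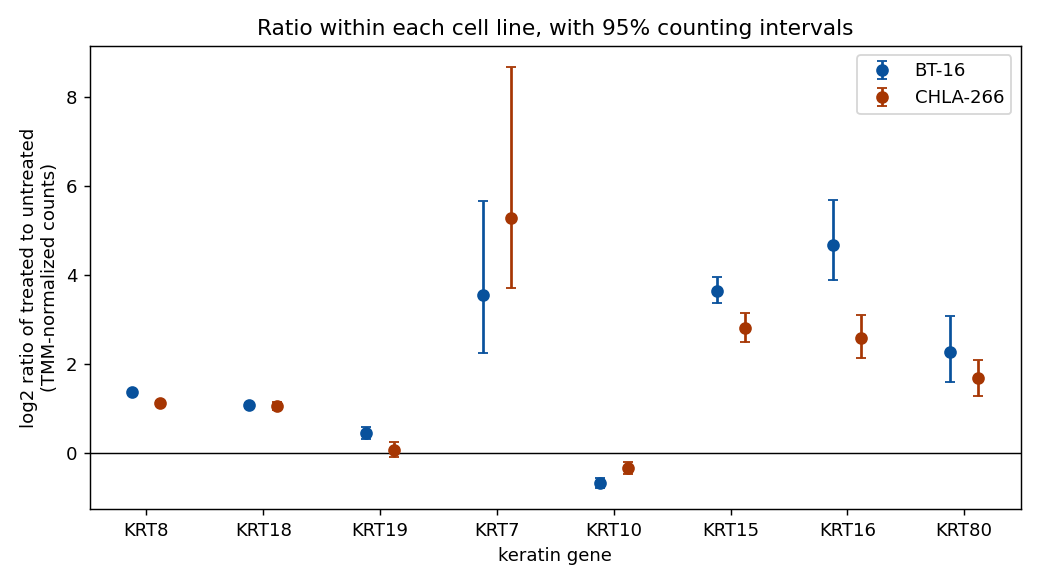
Log2 ratio of treated to untreated TMM-normalized counts within BT-16 and within CHLA-266 for 8 keratins, with 95% intervals for counting error. *KRT8* and *KRT18* lie near 1 in both lines, *KRT19* near 0, *KRT10* below 0, and *KRT7*, *KRT15*, *KRT16*, and *KRT80* well above.

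The ratio of *KRT8* to its partners is a measure that does not depend on scaling between libraries. Per kilobase of exon, *KRT8* exceeded *KRT18* by 2.32-fold and 2.84-fold in BT-16 (untreated and treated) and by 1.93-fold and 2.02-fold in CHLA-266. With the length of the canonical transcript, chosen after seeing the data, these were 4.12, 5.04, 3.44, and 3.58. The size of the excess thus depended on the gene model. On the same scale *KRT8* was 8.35-fold and 15.7-fold over *KRT19* in BT-16, and 4.56-fold and 9.40-fold over it in CHLA-266, a ratio that was higher after treatment in both lines.

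Counts of *KRT8* and *KRT18* are uncertain where reads could be shared. Both have many processed pseudogenes, and 39.2% of all stretches of 50 bases in the canonical *KRT8* transcript, and 35.3% in that of *KRT18*, also occur in transcripts of other genes. The exons of the 2 genes overlap by 525 bases on opposite strands, and the strand setting of the counting is not given in the sources used here. For *KRT7*, *KRT15*, and *KRT19* the shared portion was 1.08%, 1.02%, and 1.79%, and for *KRT10* it was 0%.

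The cell lines differed in these same genes. With the condition in the model, *KRT8* was lower in CHLA-266 than in BT-16 by a log2 fold change of -1.27 (SE 0.15, adjusted p = 1.31e-06, edgeR), and *KRT18* by -0.89 (SE 0.15, adjusted p = 0.000473, edgeR). These were the 2 keratins lower in CHLA-266, and 0 were higher (edgeR and DESeq2, with 1 keratin higher at an unadjusted p under 0.05 in each). Over all genes, 0.836% were higher and 1.46% lower in CHLA-266. *KRT19* had a log2 fold change of -0.46 between the lines (adjusted p = 0.586, edgeR). Without the condition in the model no keratin passed.

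The stratified-epithelium keratins differed among themselves. *KRT10* (chr17:40818117-40822614, minus strand), the type I keratin of differentiating epidermal layers, had the most counts among them in 3 of the 4 libraries (in treated BT-16 *KRT15* had 1142), with 1983 and 1040 in BT-16 next to 1143 and 763 in CHLA-266. It was the only keratin that was lower after treatment in both lines. On the CPM scale both treated libraries (18.0 and 14.7) lay below both untreated ones (28.7 and 18.6), although barely so. That separation depended on TMM. With upper-quartile normalization or library totals alone the falls were smaller, and treated BT-16 lay above untreated CHLA-266 cells. The log2 fold change was -0.53 (SE 0.26, adjusted p = 0.139, edgeR). With lines paired it was -0.51 and passed (adjusted p = 0.0478, edgeR), the smallest adjusted p of the 15 alternatives. With 1 library left out it ran from -0.82 to -0.18. *KRT1*, the type II partner of *KRT10* in epidermis, had 1 and 4 counts in BT-16, with 13 and 28 in CHLA-266, no more than 28 in any library.

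*KRT15* (chr17:41513745-41522529, minus strand), a type I keratin of basal cells and of the hair follicle bulge, had 108 and 1142 counts in BT-16, with 93 and 555 in CHLA-266. Both treated libraries lay above both untreated ones. It was upregulated with a log2 fold change of 3.30 (SE 0.39, adjusted p = 0.000483, edgeR), the smallest adjusted p among the keratins, and passed in 15 of 15 alternatives. The log2 ratio was 3.65 (3.37 to 3.96) in BT-16 and 2.82 (2.50 to 3.15) in CHLA-266.

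*KRT16* (chr17:41609778-41615899, minus strand), a type I keratin of wounded and hyperproliferative epidermis, had 12 and 266 counts in BT-16, with 46 and 236 in CHLA-266. The treated libraries were alike at 4.60 and 4.54 CPM, while the untreated ones differed. It was upregulated with a log2 fold change of 3.31 (SE 0.70, adjusted p = 0.00821, edgeR), in 15 of 15 alternatives. For *KRT16*, 21.8% of the stretches of 50 bases also occur in other genes, among them pseudogenes. Its type II partners *KRT6A*, *KRT6B*, and *KRT6C* had 56, 72, and 32 counts in treated BT-16 and 8, 30, and 18 in treated CHLA-266 cells, and of these *KRT6B* passed.

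Of the 20 stratified-epithelium keratins, 9 were upregulated (45.0%, against 16.1% of all genes) and 0 downregulated, with a median log2 fold change of 3.37. Besides *KRT15* and *KRT16* these were *KRT78*, *KRT79*, *KRT6B*, *KRT77*, *KRT13*, *KRT12*, and *KRT3*. *KRT78* had 2 and 90 counts in BT-16, with 0 and 51 in CHLA-266 (log2 fold change 6.21). *KRT77*, a type II keratin of sweat gland ducts, had 6 and 82 counts in BT-16, with 3 and 41 in CHLA-266 (log2 fold change 3.98). *KRT79* had 0 counts in both untreated libraries and 48 and 29 in the treated ones, at least 15.05-fold higher when the untreated libraries are set to a floor of 3 counts each. In all of these the treated libraries lay above the untreated ones, at no more than 90 counts.

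*KRT6B* had 2 and 72 counts in BT-16, with 0 and 30 in CHLA-266. *KRT13*, the type I keratin of esophagus and other moist linings, had 3 and 56 counts in BT-16, with 0 and 30 in CHLA-266, and its usual partner *KRT4* had 10 and 60 in BT-16, with 24 and 83 in CHLA-266 (adjusted p = 0.0694, edgeR). *KRT3* and *KRT12*, the pair of the corneal epithelium, were both upregulated. *KRT3* had 5 and 59 counts in BT-16, with 0 and 32 in CHLA-266. *KRT12* had 5 and 55 counts in BT-16, with 2 and 34 in CHLA-266, and with lines paired it did not pass (adjusted p = 0.0659, edgeR).

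Among the basal keratins, *KRT14* had 0 and 122 counts in BT-16, with 16 and 35 in CHLA-266. Its log2 fold change of 3.42 did not pass (adjusted p = 0.0920, edgeR) and passed with lines paired (adjusted p = 0.0491, edgeR). *KRT5*, the obligate partner of *KRT14* in basal epidermis, had 0 and 10 counts in BT-16, with 2 and 2 in CHLA-266. *KRT5* was thus at 10 counts or fewer in every library, and *KRT14* had its highest count in treated BT-16 cells. In CHLA-266 the log2 ratio of *KRT14* was 1.35 (0.48 to 2.33). The other 6 stratified keratins (*KRT1*, *KRT2*, *KRT9*, *KRT17*, *KRT6C*, and *KRT76*) had at most 84 counts in any library and did not pass, nor did *KRT6A*.

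Of the 9 root-sheath keratins, 3 were upregulated (33.3%, against 16.1% of all genes) and 0 downregulated. All 9 had at least 12 counts in each treated library. *KRT71*, a type II keratin of the inner root sheath, had 2 and 132 counts in BT-16, with 12 and 96 in CHLA-266 (log2 fold change 4.20, adjusted p = 0.0110, edgeR). *KRT72* had 0 counts in both untreated libraries and 47 and 25 in the treated ones, at least 14.03-fold higher. *KRT27*, a type I keratin of the same layers, had 2 and 32 counts in BT-16, with 0 and 32 in CHLA-266, and did not pass with lines paired (adjusted p = 0.0764, edgeR). The other 6 had at most 53 counts in any library and did not pass. The summed root-sheath keratins were 37.4-fold higher in treated BT-16 cells (12 and 376 counts) and 19.0-fold higher in treated CHLA-266 cells (17 and 273 counts).

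Of the 17 hair-shaft keratins, 2 were upregulated (11.8%, against 16.1% of all genes) and 0 downregulated. *KRT33A* had 0 and 48 counts in BT-16, with 1 and 27 in CHLA-266 (log2 fold change 6.10, adjusted p = 0.0234, edgeR). *KRT81* had 2 and 16 counts in BT-16, with 0 and 50 in CHLA-266 (adjusted p = 0.0483, edgeR), and did not pass with lines paired (adjusted p = 0.0967, edgeR). Reads of *KRT81* may be shared with *KRT86*, since 44.6% of its stretches of 50 bases occur in other genes, and those of *KRT33A* with *KRT33B* (27.2%). The other 15 had at most 90 counts in any library and did not pass. The hair-shaft class was the one in which the lines differed most. Its sum was 34.4-fold higher in treated BT-16 (16 and 461 counts) and 5.30-fold higher in treated CHLA-266 cells (51 and 228 counts), and the difference between the lines was not tested.

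Of the remaining keratins, *KRT20*, the type I keratin of gut and bladder surface cells, was upregulated. It had 0 and 76 counts in BT-16, with 1 and 28 in CHLA-266 (log2 fold change 6.56, adjusted p = 0.0122, edgeR). *KRT80* had 20 and 83 counts in BT-16, with 73 and 198 in CHLA-266. The groups did not overlap, but there was little room between the untreated CHLA-266 and the treated BT-16 library. Its log2 fold change of 1.83 did not pass (adjusted p = 0.106, edgeR), and it passed with lines paired (adjusted p = 0.0219, edgeR). *KRT23* and *KRT24* had at most 58 counts and did not pass.

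Together, 14 of the 46 stratified, root-sheath, and hair-shaft keratins were upregulated (30.4%, against 16.1% of all genes). Their median log2 fold change was 3.93. It was 3.37 with 7 genes set at their bound, those with 0 counts in both untreated libraries and more than 3 in a treated one. For the 4 simple keratins the median was 1.18, with 2 upregulated. The difference between these classes was not tested. Without *KRT10*, *KRT15*, and *KRT16*, the other 43 summed to 100 and 1794 counts in BT-16, with 146 and 972 in CHLA-266, which was 21.4-fold and 7.89-fold higher after TMM normalization. Even so they were 0.379% and 3.31% of the keratin counts in BT-16, with 1.24% and 4.60% in CHLA-266 (exact 95% binomial intervals 0.309 to 0.461, 3.16 to 3.46, 1.04 to 1.45, and 4.32 to 4.89). In bulk RNA, a few cells with much of such a transcript and many cells with little of it cannot be told apart, nor can fewer cells of a type and less RNA per cell.

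In direction, 47 of the 54 keratins were higher after treatment in both lines (44.7% of all genes tested). *KRT33B* had 0 counts in both CHLA-266 libraries and *KRT39* in both BT-16 libraries. *KRT10* was lower in both, and *KRT32*, *KRT36*, *KRT83*, and *KRT85*, all of the hair shaft, were higher after treatment in BT-16 alone. The interval of the log2 ratio lay above 0 for 51 of 55 keratins in BT-16 (46.9% of all genes) and for 39 in CHLA-266 (44.0%). With counts halved, as if both reads of each pair had been counted, these were 49 and 32. The median log2 ratio in BT-16 and CHLA-266 was 1.22 and 1.09 for simple, 4.08 and 3.61 for stratified, 5.11 and 5.60 for root-sheath, and 4.90 and 2.97 for hair-shaft keratins, and 0.19 and 0.24 for all genes.

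**Figure D3:**
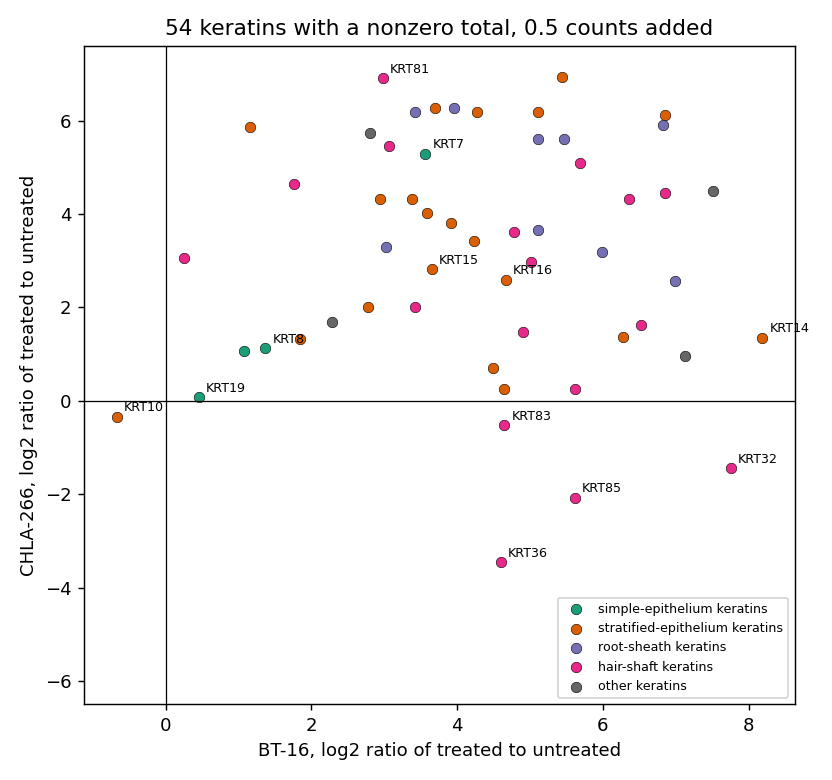
Log2 ratio of treated to untreated TMM-normalized counts in BT-16 (x axis) and CHLA-266 (y axis) for the 54 keratins with a nonzero total, with 0.5 counts added, colored by class. Most points lie in the upper right, *KRT10* lies at the lower left, and *KRT32*, *KRT36*, *KRT83*, and *KRT85* lie below 0 in CHLA-266 alone. Genes with 0 counts in both libraries of a line, such as *KRT33B* in CHLA-266, lie near 0 on that axis.

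As families that tumor cells of the brain are not known to use, olfactory receptors and the keratin-associated proteins of the hair shaft were measured in the same way. Of 343 olfactory receptors tested, 28 were upregulated (8.16%) and 0 downregulated (0 also before adjustment and with DESeq2). Their median log2 fold change was 4.16 (2.45 at the bounds). The number upregulated was 61 with DESeq2, 49 with limma on VST values, and 17 with lines paired. Of all 389, untreated libraries held 124 and 92 with a count, and treated ones 301 and 214 (BT-16, then CHLA-266). Their summed counts were 13.1-fold and 8.40-fold higher after treatment. Of 73 keratin-associated proteins tested, 3 were upregulated (4.11%) and 0 downregulated, with summed counts 20.8-fold and 17.8-fold higher. The median log2 fold change of this family was 4.96 (2.04 at the bounds). Here 10 were upregulated with DESeq2, 8 with limma on VST values, and 1 with lines paired. The low keratins were thus higher in treated libraries in which other tissue-restricted families were higher too, and the part of this in the keratin values was not tested. The 10 skin markers summed to 23 and 275 counts in BT-16, with 37 and 158 in CHLA-266. Of them 7 were higher after treatment in both lines and 0 lower in both (44.7% of all genes were higher in both). The late epidermal markers *LORICRIN* and *LCE2B* were at 0 in treated CHLA-266 cells, whereas *FLG* had 34 and *SBSN* 43 counts there, from 8 each untreated. Of the marker lists of other cells, 2 of 6 fibroblast, 3 of 6 macrophage, and 0 of 4 melanocyte genes were upregulated, against 16.1% of all genes. The upregulated fibroblast genes were *COL3A1* (0 and 66 counts in BT-16, with 0 and 8 in CHLA-266) and *PDGFRA* (11 and 128, with 15 and 206). The fibroblast collagen *COL1A2* was downregulated (408 and 103 counts in BT-16, with 412 and 49 in CHLA-266, log2 fold change -2.21, adjusted p = 0.00758, edgeR). All of these were named after their values were seen. In the macrophage and melanocyte lists 0 genes were downregulated. The part of these markers in the keratin values was not tested either.

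The level of each keratin was therefore set beside the 95th percentile of the olfactory receptors in the same library, which was 4.10 and 26.2 counts per kilobase of exon in BT-16, with 3.61 and 21.1 in CHLA-266. In untreated cells 8 and 15 of the 55 keratins lay above it, and in treated cells 15 and 10 (BT-16 and CHLA-266). In all 4 libraries 6 keratins did, namely *KRT8*, *KRT18*, *KRT10*, *KRT19*, *KRT15*, and *KRT16*. *KRT71* was the seventh above it in both treated libraries, and *KRT80* the seventh in both untreated ones. *KRT71* and *KRT14* also lay above it in untreated CHLA-266 cells. Of the hair-shaft keratins, *KRT32* and *KRT83* lay above it in untreated CHLA-266 and 0 in untreated BT-16 cells. In treated cells the hair-shaft keratins above it were *KRT32* and *KRT33A* in BT-16 and *KRT81* in CHLA-266. These counts depended on the gene model. With canonical transcript lengths for both families, 10 and 15 keratins lay above the percentile in untreated and 17 and 13 in treated cells. *KRT14* was then above it in both treated libraries, and *KRT40* in treated CHLA-266 cells. The median of the 46 stratified, root-sheath, and hair-shaft keratins was 17.7 and 9.78 counts per kilobase in treated BT-16 and CHLA-266 cells, against 4.05 and 1.32 for the olfactory receptors.

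**Figure D4:**
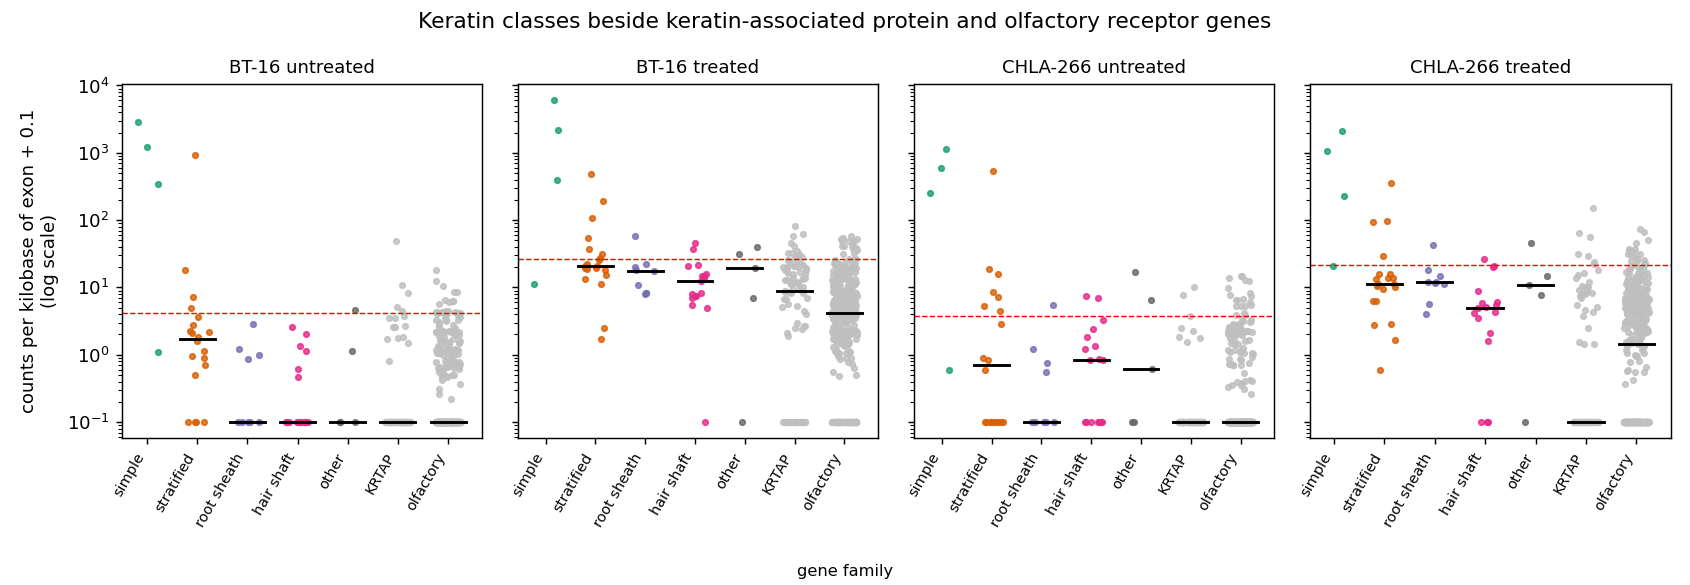
Counts per kilobase of exon plus 0.1 (log scale) of each gene in the 5 keratin classes, the keratin-associated proteins (KRTAP), and the olfactory receptors, in 1 panel per library. Black lines are class medians (drawn for classes of at least 5 genes) and the dashed red line is the 95th percentile of the olfactory receptors, which is 26.2 in treated BT-16 and 21.1 in treated CHLA-266 cells. The simple keratins *KRT8*, *KRT18*, and *KRT19* stand far above it, and most hair-shaft and root-sheath keratins lie below it.

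Since many of the low keratins were higher together in the treated libraries, the sequence before their start sites was read. A window of 250 bases before to 50 bases after the start was in the RefSeq table (GRCh38.p14) for 34 of the 55 keratins, and 32 of these lay within 50 bases of the start of the canonical GENCODE transcript. The motif TATAAA, the core of the TATA box, occurred on the strand of the gene in 18 of the 34 windows (52.9%), against 7.08% of all 14642 windows. It was in 6 of 8 root-sheath, 8 of 14 hair-shaft, and 3 of 9 stratified-epithelium keratins. On both strands the counts were 20 of 34 and 9.71%. The motif CCAAT, on either strand, was in 17 of the 34 windows (36.2% of all), and TGANTCA, on either strand, in 0 of 34 (5.70% of all). None of the 3 motifs contains another, and a match is a description of the window only.

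The 100 bases before the start are shown for the 7 upregulated keratins with a window and for *KRT10*, the abundant keratin that was lower in both treated libraries, on the minus strand in all 8. Capitals mark TATAAA, which lies 27 to 30 bases before the start in *KRT71*, *KRT27*, *KRT33A*, *KRT3*, and *KRT10* and is not in the windows of *KRT79*, *KRT12*, and *KRT20*.
KRT71 (chr12:52553146-52553245): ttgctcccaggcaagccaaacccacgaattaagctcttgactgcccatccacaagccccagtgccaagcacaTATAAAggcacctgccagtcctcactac
KRT27 (chr17:40782551-40782650): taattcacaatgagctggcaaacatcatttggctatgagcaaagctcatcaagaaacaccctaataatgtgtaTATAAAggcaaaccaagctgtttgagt
KRT33A (chr17:41350829-41350928): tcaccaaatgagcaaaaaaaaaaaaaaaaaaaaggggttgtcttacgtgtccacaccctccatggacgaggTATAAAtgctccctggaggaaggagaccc
KRT3 (chr12:52796118-52796217): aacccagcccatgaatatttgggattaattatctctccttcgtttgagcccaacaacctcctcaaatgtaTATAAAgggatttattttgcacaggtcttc
KRT79 (chr12:52834312-52834411): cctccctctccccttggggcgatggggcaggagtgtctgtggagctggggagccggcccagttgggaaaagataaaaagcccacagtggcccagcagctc
KRT12 (chr17:40867224-40867323): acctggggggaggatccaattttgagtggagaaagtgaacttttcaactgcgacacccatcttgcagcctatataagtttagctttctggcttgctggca
KRT20 (chr17:40885243-40885342): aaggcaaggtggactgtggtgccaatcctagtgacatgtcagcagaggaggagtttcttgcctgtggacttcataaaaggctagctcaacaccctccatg
KRT10 (chr17:40822615-40822714): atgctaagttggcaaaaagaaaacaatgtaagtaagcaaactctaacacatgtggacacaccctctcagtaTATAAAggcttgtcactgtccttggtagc
The motif was thus present in 4 of the 7 upregulated keratins with a window and also in *KRT10*, against 18 of all 34 keratin windows (52.9%). The other upregulated keratins had no window, so the motif could not be looked for in them. These were *KRT15*, *KRT16*, *KRT7*, *KRT18*, *KRT78*, *KRT6B*, *KRT77*, *KRT13*, *KRT72*, and *KRT81*, more than had a window.

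Keratin filaments are anchored at desmosomes and hemidesmosomes by plakins. Of 17 desmosome and plakin genes, 6 were upregulated (35.3%, against 16.1% of all genes) and 1 downregulated. Desmoplakin (*DSP*), which ties keratin filaments to the desmosome, had 1725 and 30625 counts in BT-16, with 2588 and 82066 in CHLA-266 (log2 fold change 4.98, SE 0.52, adjusted p = 0.000263, edgeR). Both treated libraries lay far above both untreated ones. *PERP*, a desmosomal p53 target, was upregulated (log2 fold change 0.68), *PKP4* was downregulated (-1.53), and plectin (*PLEC*) did not pass (0.20). Of 6 hemidesmosome genes, 3 were upregulated, namely *DST*, *ITGA6*, and *ITGB4*, and 1 was downregulated. The integrin *ITGB4* had 22 and 242 counts in BT-16, with 15 and 82 in CHLA-266.

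Of 20 cornified envelope genes tested, 2 were upregulated (10.0%, against 16.1% of all genes) and 0 downregulated. Trichohyalin (*TCHH*), which cross-links keratin filaments in the inner root sheath, had 112 and 1720 counts in BT-16, with 45 and 2078 in CHLA-266 (log2 fold change 4.88, SE 0.40, adjusted p = 6.62e-05, edgeR). Both treated libraries lay far above both untreated ones. *HRNR* was upregulated at low counts (8 and 119, and 4 and 58), and the abundant members *CNFN* (-0.94) and *TGM1* (0.65) did not pass.

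Of 20 epithelial identity genes, 6 were upregulated (30.0%, against 16.1% of all genes) and 0 downregulated. *KLF4*, a transcription factor of epithelial differentiation, had 49 and 307 counts in BT-16, with 63 and 244 in CHLA-266, and the tight junction gene *CLDN4* had 97 and 291, and 100 and 239. Both passed. The most abundant members did not pass, with log2 fold changes of 0.49 in *KLF5*, 1.25 in *MUC1*, and 0.05 in *GRHL1*, and with lines paired *KLF5* (adjusted p = 0.00593, edgeR) and *MUC1* (adjusted p = 7.26e-07, edgeR) passed.

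Of 16 other intermediate filament genes, 4 were upregulated and 3 downregulated, against 16.1% and 19.1% of all genes. The lamin genes *LMNB1* (log2 fold change -5.52) and *LMNB2* (-2.51) and nestin (*NES*, -0.74) were downregulated. *LMNB1* had 32343 and 664 counts in BT-16, with 26942 and 428 in CHLA-266. Vimentin had 110119 and 73439 counts in BT-16, with 117192 and 120804 in CHLA-266, and a log2 fold change of 0.04 (adjusted p = 0.920, edgeR). Lamin A (*LMNA*) had -0.49 and passed with lines paired (adjusted p = 0.0121, edgeR). *GFAP*, the glial filament, was upregulated from 6 and 4 to 167 and 78 counts.

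Of 13 genes of keratin binding and turnover, 2 were upregulated (15.4%) and 6 downregulated, against 16.1% and 19.1% of all genes. *SQSTM1*, whose protein p62 gathers with keratins in inclusion bodies, was upregulated (log2 fold change 1.73). *FAM83H* (-1.47) and *TCHP* (-1.34), which bind keratin filaments, and the chaperone *HSPA8* (-0.59) were downregulated. *YWHAZ* (-0.42) did not pass and passed with lines paired (adjusted p = 0.0222, edgeR), and *PNN* (-0.23) did not pass.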

How the data were processed

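Libraries were made with the SMART-Seq Stranded kit from 10 ng of RNA. Per the methods, the authors used bcl2fastq 2.20 and trimmed, aligned (STAR, hg38), and counted reads per gene, and removed genes with repeated symbols and on sex chromosomes. The authors deposited estimated counts per gene symbol that were not normalized, and 5 of these values (2 genes) had decimals and were rounded here. The authors deposited log2 values after a variance-stabilizing transformation (VST), which served in 1 alternative. How pairs of reads were counted and the strand setting are not given in the sources used here.

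The 18066 genes with a nonzero total were tested with edgeR 4.0.16 (quasi-likelihood test, TMM, Benjamini-Hochberg) in R 4.3.3, with the condition as the only term and an adjusted p under 0.05 as the threshold. The cell line as a block pairs libraries by the line itself, and deviations of a line's libraries from the condition means correlated at 0.263 across 12620 genes, which are not independent replicates. The common dispersion was 0.140, and 0.0712 with the block. An exact permutation test of 2 against 2 libraries cannot go below a two-sided p of 0.333. TMM factors were 0.919, 1.12, 0.930, and 1.04 (untreated and treated BT-16, then CHLA-266).

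Log2 ratios within a line used 0.5 added counts and exact Clopper-Pearson 95% intervals, which cover counting error only, and the floor was 3 counts per library. Exon lengths and coordinates came from GENCODE 44. Values in every library are given for the 4 simple keratins, the 10 most abundant keratins, the 8 upregulated with the smallest adjusted p, and all that were downregulated or differed between lines. Other upregulated keratins and single members were named as any keratin may be. From each other list the 3 most abundant genes and up to 3 passing genes with the smallest adjusted p are named. *SMARCB1* and skin genes come from marker lists. Members and lists were chosen with earlier results of these data known. Alternatives were the block, DESeq2 1.42.0, limma 3.58.1 on VST values, other scalings and filters, halved counts, and each library left out.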

Additional observations from a re-analysis of the deposited data

Results flagged for a closer look

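In 4 hair-shaft keratins the lines moved in opposite directions, and the difference was not tested. *KRT32* had 0 and 90 counts in BT-16, with 14 and 4 in CHLA-266, with log2 ratios of treated to untreated of 7.75 and -1.44. *KRT36* had 1 and 30 counts in BT-16, with 6 and 0 in CHLA-266, with log2 ratios of 4.60 and -3.46. *KRT83* had 0 and 10 counts in BT-16, with 14 and 8 in CHLA-266, with log2 ratios of 4.65 and -0.53. *KRT85* had 0 and 20 counts in BT-16, with 2 and 0 in CHLA-266, both under the floor of 3 counts, with log2 ratios of 5.61 and -2.08. In CHLA-266 the 95% counting intervals of all 4 included 0, at counts of 14 or fewer.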

How the results depend on the processing

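*KRT15* and *KRT16* were upregulated under each of 15 alternatives, and *KRT19* changed sign, at -0.0633 without the treated BT-16 library (-0.06 to 0.60 over the 4 libraries left out). With a library left out the fold changes of *KRT1* (-0.68 to 4.20), *KRT32* (-0.55 to 8.61), *KRT36* (-4.82 to 3.98), *KRT83* (-0.47 to 6.30), and *KRT85* (-3.13 to 6.39), none of them called, also crossed 0. The number of upregulated keratins (17) was 4 with at least 10 counts in every library, where 8 keratins remained for testing, and 14 to 25 under the other alternatives that used all libraries (25 with DESeq2 and with limma on VST values). Leaving out 1 library at a time gave 10 to 17, with 10 without the treated BT-16 library. Keratins downregulated went from 0 to 1 (*KRT10*) with the cell line as a replicate block. Simple keratins upregulated went from 2 to 1 with at least 10 counts in every library, with a total of at least 10 counts, and with limma on VST values, and were 1 to 3 with 1 library left out (1 without the untreated CHLA-266 library). Stratified, root-sheath, and hair-shaft keratins upregulated (14) were 22 with DESeq2, 22 with limma on VST values, and 3 with at least 10 counts in every library, and were 7 to 14 with 1 library left out (7 without the treated BT-16 and 9 without the untreated CHLA-266 library). The causes were not tested. Over all genes, 2910 were higher and 3454 lower, 4361 and 1895 with upper-quartile normalization, and 3678 and 2353 with library totals alone. Folds of summed keratin classes depended on the scaling too, and TMM gave the smallest. For stratified, root-sheath, and hair-shaft keratins without *KRT10*, *KRT15*, and *KRT16*, upper-quartile normalization gave 28.2-fold in BT-16 and 9.69-fold in CHLA-266. Library totals alone gave 26.2-fold and 8.84-fold. Between the lines, 151 genes higher and 264 lower in CHLA-266 became 0 and 0 without the condition in the model, 54 and 107 with the edgeR filter, and 168 lower with DESeq2 and 477 with library totals alone, while the 2 keratins lower became 0 without the condition alone. That comparison could not be tested with a library left out, since no residual degree of freedom is left. With the replicate block, upregulated hemidesmosome genes went from 3 to 4, cornified envelope genes from 2 to 3, epithelial identity genes from 6 to 9, and other intermediate filament genes from 4 to 5 (3 to 5 downregulated), and downregulated keratin binding and turnover genes from 6 to 7. With that block, 17.9% of all genes were upregulated and 23.7% downregulated. Low counts limit most keratins, since 26 had no more than 3 counts in both untreated libraries.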
